A study of Mus musculus with 6 samples.

Results

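Adrenomedullin, endothelin 1 and the receptor genes that read them were followed across the 6 liver arrays of a mouse endotoxin study. The members were the genes whose target rows are described in the array files as adrenomedullin, endothelin 1, the calcitonin receptor-like receptor, receptor activity modifying protein 1, 2 or 3, or endothelin receptor type A or B. They number 8 of the 35972 genes or other features tested (Adm, Edn1, Calcrl, Ramp1, Ramp2, Ramp3, Ednra and Ednrb) and take 12 of the 44170 target rows. Their log2 differences between the groups were in view when they were chosen, so those differences are given here as a description and not as tests.

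Male wild-type C57 BL/6 mice aged 9 to 10 weeks were compared in 2 groups of 3, with 1 mouse per array. The LPS/GalN mice received 0.01 μg of LPS together with 20 mg of GalN, and the LPS mice received the same 0.01 μg of LPS alone; liver was taken after 2.5 h in both. LPS (lipopolysaccharide) is a component of the outer membrane of Gram-negative bacteria that sets off innate immune signalling, and GalN (D-galactosamine) is an amino sugar that ties up uridine nucleotides in hepatocytes and blocks their RNA synthesis. Every mouse carried LPS, and untreated mice or mice given GalN alone are not analysed here, so a lower level with GalN cannot be told apart as less induction or as more loss of a transcript.

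Adrenomedullin is a vasodilator peptide of endothelial cells, vascular smooth muscle and macrophages whose gene is induced by endotoxin, inflammatory cytokines and low oxygen. It acts through Calcrl, a receptor that binds adrenomedullin when paired with Ramp2 or Ramp3 and binds calcitonin gene-related peptide (CGRP) when paired with Ramp1. Endothelin 1 is a strong vasoconstrictor peptide: in the liver its type A receptor contracts stellate and smooth muscle cells, and its type B receptor also sits on sinusoidal endothelial cells, where it can drive nitric oxide release and clear the peptide.

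The values are RMA intensities deposited by the authors, 1 per target row and array, each summarised from 3 probes for nearly all rows. They are compared here on the log2 scale. Array medians lay between 60.35 and 63.11, and a row of 5000 random probes, taken as the background, between 31.31 and 34.7. Hepatocyte markers were the brightest marker list on all 6 arrays (mean log2 14.84 to 15.03 in LPS/GalN, 14.93 to 15.13 in LPS), as the tissue label has it. Some arrays also carried markers of other tissues. The 13 thymus and T cell markers measured averaged 10.10 and 9.52 on LPS/GalN replicates 2 and 3, and 6.00 on LPS/GalN replicate 1, against 5.69 to 6.29 on the LPS arrays. All 13 were above the random probes on those LPS/GalN replicates 2 and 3, and 10 or 11 on every other array. The 15 intestine markers measured averaged 6.36 to 6.65 on the LPS/GalN arrays, against 10.57, 10.86 and 6.62 on LPS replicates 1, 2 and 3. Their summed intensity ranged from 5610 to 6220 in LPS/GalN, against 7140 to 54400 in LPS. For many of the results below, values with these arrays left out are given beside them.

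Adm, which encodes the precursor of adrenomedullin (chr7:117771184-117773334, mm9), stood furthest apart of the 8 genes. Its intensity was 227, 159 and 74.5 on LPS/GalN replicates 1, 2 and 3, against 2770, 2280 and 2150 on LPS replicates 1, 2 and 3. The groups did not overlap: the dimmest LPS array was many times brighter than the brightest LPS/GalN array, and all 6 values were above the random probes. Mean log2 intensity was 7.12 ± 0.82 in LPS/GalN and 11.22 ± 0.19 in LPS (SD, n = 3 each), a difference of -4.10 (SE 0.40) or 17.2-fold lower with GalN. The fall ranked 50 among all 35972 features. The spread in the LPS/GalN group was the wider, with replicate 3 the lowest.

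With LPS/GalN replicates 2 and 3 left out the Adm difference was -3.40, and with LPS replicates 1 and 2 left out, which leaves a single LPS array and an adjusted p above the threshold, it was -3.95. Leaving out any single array gave -4.45 to -3.65. The part of any RNA of other tissues on these arrays in the Adm values was not tested.

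Edn1, which encodes the precursor of endothelin 1 (chr13:42396844-42403359, mm9), was also lower on every LPS/GalN array, by a smaller margin. Its intensity was 228, 80.6 and 85.3 on LPS/GalN replicates 1, 2 and 3, against 307, 421 and 476 on LPS replicates 1, 2 and 3. LPS/GalN replicate 1 stood close to the lowest LPS array, while replicates 2 and 3 lay well under it. Mean log2 intensity was 6.86 ± 0.84 in LPS/GalN and 8.63 ± 0.33 in LPS (SD, n = 3 each), a difference of -1.77 (SE 0.42) or 3.40-fold lower. The low LPS/GalN replicates 2 and 3 are the arrays with high thymus and T cell markers. With both left out the difference was -0.79, and without replicate 1 it was -2.25. Whether any RNA of another tissue on those arrays had a part in the size of the Edn1 difference was not tested.

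**Figure D1:**
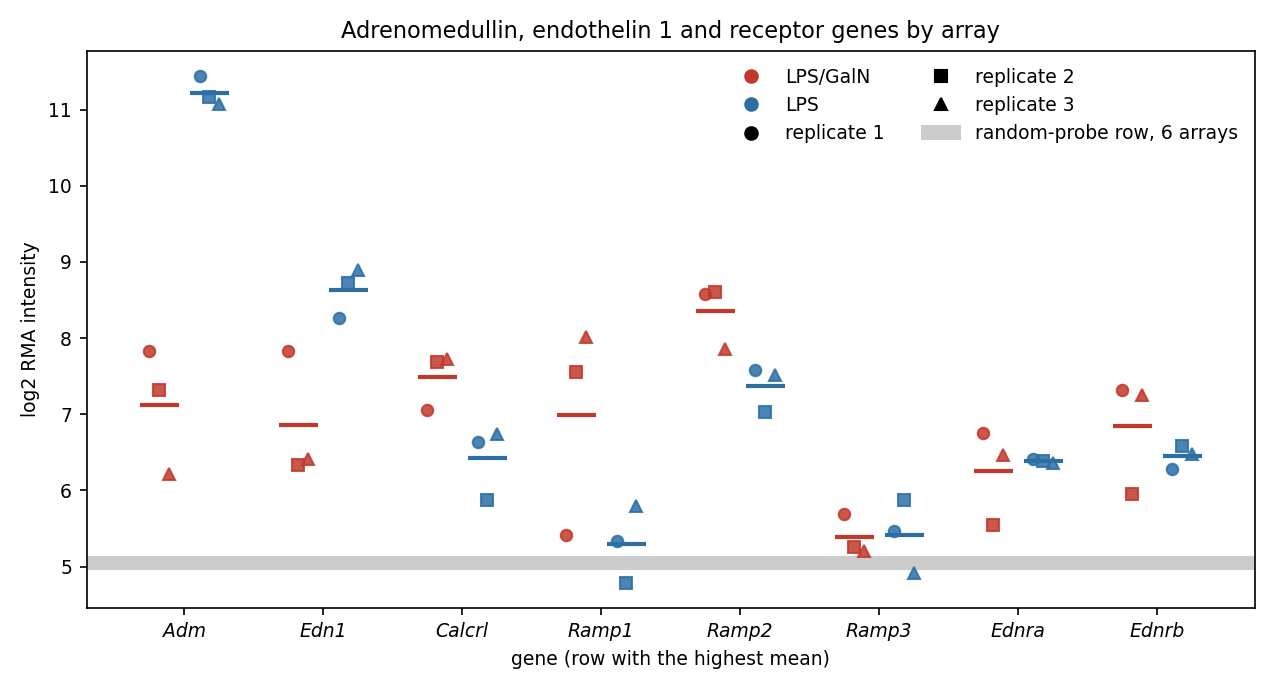
Log2 RMA intensity of the 8 genes on each array, LPS/GalN in red and LPS in blue, with symbols for replicates 1 to 3, a bar for each group mean and a grey band for the range of the random-probe row. Adm and Edn1 lie lower on every LPS/GalN array, Calcrl and Ramp2 lie higher on every LPS/GalN array, and Ramp3 stays near the grey band.

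The windows around the start sites of the genes for both peptides are shown because these were the members lower on every LPS/GalN array. They are RefSeq windows on GRCm38.p6, plus strand, from 250 bases before to 50 bases after the start, at chr7:110627407-110627706 for Adm and chr13:42301226-42301525 for Edn1. Capitals mark matches to ACGTG or GCGTG on either strand, the letters at the core of hypoxia response elements.
Adm: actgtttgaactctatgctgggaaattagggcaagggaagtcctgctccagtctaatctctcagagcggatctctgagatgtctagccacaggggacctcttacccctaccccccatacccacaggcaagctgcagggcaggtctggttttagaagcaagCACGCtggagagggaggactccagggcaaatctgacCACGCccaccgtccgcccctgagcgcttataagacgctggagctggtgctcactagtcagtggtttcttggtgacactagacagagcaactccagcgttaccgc
Edn1: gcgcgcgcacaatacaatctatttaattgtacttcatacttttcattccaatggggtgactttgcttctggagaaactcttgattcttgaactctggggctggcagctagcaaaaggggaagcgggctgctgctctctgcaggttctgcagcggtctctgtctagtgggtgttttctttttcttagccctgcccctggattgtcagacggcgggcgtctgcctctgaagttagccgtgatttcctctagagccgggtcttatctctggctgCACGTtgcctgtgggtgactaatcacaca

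The Adm window held GCGTG at 2 places, both read on the minus strand, with first bases at -90 and -54 from the start. The Edn1 window held ACGTG at 1 place, on the minus strand, at position 22 after the start. Such matches are common: 32.4% of the 32851 windows in the table hold GCGTG and 19.6% hold ACGTG. On either strand, neither window held TGACTCA, a form of the AP-1 site (in 5.2% of all windows), or TGACGTCA, the cyclic AMP element (in 1.79%). GGGANNTTC, letters shared by many NF-kB sites (in 3.94% of all windows), was in neither. All these letters were also absent from the windows of Calcrl, Ramp1, Ramp3, Ednra and Ednrb, which completes the 7 members with a window. Other forms of these sites were not searched for, so their absence is not shown. GCGTG occurred once in Calcrl and 2 times each in Ramp3 and Ednrb.

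Calcrl (chr2:84172889-84265424, mm9) was higher on every LPS/GalN array. Its intensity was 133, 207 and 212 on LPS/GalN replicates 1, 2 and 3, against 99.5, 58.5 and 107 on LPS replicates 1, 2 and 3. LPS/GalN replicate 1 lay nearest to the LPS range, and LPS replicate 2 was the lowest. Mean log2 intensity was 7.49 ± 0.38 in LPS/GalN and 6.42 ± 0.48 in LPS (SD, n = 3 each), a difference of 1.08 (SE 0.32) or 2.11-fold higher. It was 0.64 with LPS/GalN replicates 2 and 3 left out and 0.75 with LPS replicates 1 and 2 left out.

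Ramp2, the partner that makes Calcrl an adrenomedullin receptor in vessels, was likewise higher on every LPS/GalN array. The brighter of its rows (chr11:101107743-101109564, mm9) read 382, 388 and 233 on LPS/GalN replicates 1, 2 and 3, against 191, 130 and 183 on LPS replicates 1, 2 and 3. A second row of the gene (chr11:101107647-101109564) read 306, 190 and 189 in LPS/GalN, against 85.7, 52.9 and 128 in LPS. In both rows the lowest LPS/GalN array was above the highest LPS array. The log2 differences were 0.97 (SE 0.29) and 1.42 (SE 0.36), or 1.96-fold and 2.67-fold higher. Leaving out LPS/GalN replicates 2 and 3 gave 1.20 for the brighter row, and leaving out LPS replicates 1 and 2 gave 0.83. A further row described as Ramp2 lies on chromosome 19, while the gene is on chromosome 11, so it was not counted as a member. It read 2870, 2870 and 1860 in LPS/GalN, against 2340, 1860 and 2930 in LPS.

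Ramp1, which turns Calcrl into the CGRP receptor, was uneven within the LPS/GalN group. Its brighter row (chr1:93076651-93120250, mm9) read 42.4, 188 and 259 on LPS/GalN replicates 1, 2 and 3, against 40.1, 27.7 and 55.2 on LPS replicates 1, 2 and 3. LPS/GalN replicate 1 lay within the LPS range, and LPS replicate 2 was not above the random probes. The high values fell on LPS/GalN replicates 2 and 3, the arrays with high thymus and T cell markers. Over all arrays the log2 difference was 1.69 (SE 0.64). With replicates 2 and 3 left out it was 0.10, and without LPS/GalN replicate 1 it was 2.49.

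The second Ramp1 row (chr1:93076398-93103367) read 48.7, 192 and 49.8 in LPS/GalN, against 36.0, 21.7 and 39.6 in LPS. Here only LPS/GalN replicate 2 was high, and the rows disagreed on replicate 3. The lowest LPS/GalN array of this row (48.7) was still above the highest LPS array (39.6). The part of thymus or T cell RNA in the Ramp1 values was not tested.

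Ramp3, which also pairs with Calcrl to bind adrenomedullin, was near the background (chr11:6558539-6577482, mm9). Its intensity was 51.7, 38.3 and 36.9 on LPS/GalN replicates 1, 2 and 3, against 44.4, 58.3 and 30.3 on LPS replicates 1, 2 and 3. The groups overlapped throughout, LPS replicate 3 was not above the random probes, and the log2 difference was -0.03 (SE 0.30), with a 95% interval from -0.72 to 0.65.

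Ednra, the type A endothelin receptor (chr8:80187953-80248335, mm9), read 108, 46.9 and 88.5 on LPS/GalN replicates 1, 2 and 3, against 84.8, 83.5 and 82.1 on LPS replicates 1, 2 and 3. The LPS arrays were nearly alike and the LPS/GalN arrays lay on both sides of them. The log2 difference was -0.13 (SE 0.32; 95% interval -0.87 to 0.62), an interval too wide to show that the levels are alike. A second row (chr8:80193592-80248351) was at background, above the random probes on 1 LPS/GalN array and 0 LPS arrays.

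Ednrb, the type B endothelin receptor, had rows that disagreed between arrays. The brighter (chr14:104213842-104243619, mm9) read 160, 61.6 and 152 on LPS/GalN replicates 1, 2 and 3, against 77.7, 95.9 and 89.4 on LPS replicates 1, 2 and 3. The second (chr14:104213944-104242913), described in the files as the precursor of the type B receptor, read 76.3, 158 and 113 in LPS/GalN, against 59.8, 73.0 and 69.1 in LPS. LPS/GalN replicate 2 was the lowest array of all in the first row and the highest of all in the second. In the second row the lowest LPS/GalN array (76.3) was just above the highest LPS array (73.0). The log2 differences were 0.39 (SE 0.38) and 0.72 (SE 0.30). Among the LPS/GalN arrays, dropping replicate 2 gave 0.84 for the brighter row, dropping replicate 1 gave 0.15 and dropping replicate 3 gave 0.19. With replicates 2 and 3 both left out it was 0.87.

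**Figure D2:**
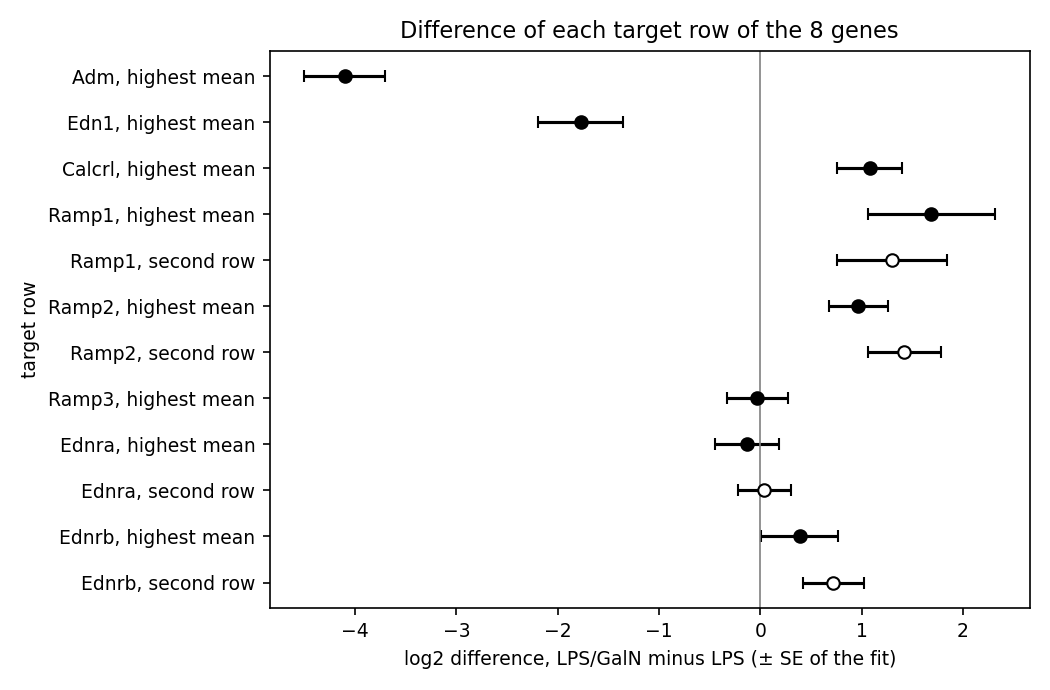
Log2 difference, LPS/GalN minus LPS, of the 12 target rows of the 8 genes, with the SE of the limma fit. Filled points are the brightest row of each gene and open points are second rows. Adm (-4.10) and Edn1 (-1.77) lie left of 0, both rows of Ramp1, Ramp2 and Ednrb and the row of Calcrl lie right of it, and Ramp3 and both rows of Ednra lie at or next to 0.

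Of the 8 genes, 1 (Adm) was lower and 0 were higher at an adjusted p under 0.05 in limma over all features, and 7 did not pass; at an unadjusted p under 0.05 the counts were 2 lower and 3 higher. Over all features 3.01% were lower and 0.598% were higher at an adjusted p under 0.05. At an unadjusted p under 0.05, 3251 of the 35972 features were lower and 3058 were higher. Both Adm and Edn1 were lower on every LPS/GalN array than on any LPS array, as were 11% of all features. Both Calcrl and Ramp2 were higher on every LPS/GalN array, as were 12.9%. This is in the brightest row of each gene. The median log2 difference was 0.178 over the 8 genes and 0.05195 over all features. Since the members were picked on this contrast, nothing is read from these shares. In whole-liver RNA, fewer cells of a type and less RNA per cell cannot be told apart.

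The remaining genes of the adrenomedullin and CGRP system had small differences. All 13 listed genes were measured, and in limma 0 passed the threshold in either direction (also 0 at an unadjusted p under 0.05), with a median log2 difference of 0.33. The median was 0.10 without LPS/GalN replicate 1, 0.17 without LPS replicate 2 and 0.12 with LPS/GalN replicates 2 and 3 left out. Pam, the enzyme that amidates adrenomedullin and other peptides, had a difference of 0.24 (SE 0.47). It read 401, 141 and 120 in LPS/GalN, against 205, 115 and 175 in LPS, so its groups overlapped and LPS/GalN replicate 1 alone was high. Its difference was -0.30 without that array and 1.32 with LPS/GalN replicates 2 and 3 left out. Adm2 (intermedin, a related ligand of Calcrl) had a difference of -0.41 (SE 0.23) and Calca, which encodes calcitonin and CGRP, of -0.22 (SE 0.22). Ackr3, an atypical chemokine receptor that can also take up adrenomedullin, had a difference of 0.34 (SE 0.39; 0.04 without LPS/GalN replicate 1, and 0.96 with LPS/GalN replicates 2 and 3 left out), and Calcr, the calcitonin receptor, of 0.47 (SE 0.30). These last 4 genes lay near the background, with Adm2 above the random probes on 5 arrays, Calca and Ackr3 on 4, and Calcr on 2.

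Of the endothelin system beyond the members, 14 of 16 listed genes were measured. Among them 1 was lower and 0 were higher, against 3.01% and 0.598% of all features. The counts were the same at an unadjusted p under 0.05 in limma. The median log2 difference was -0.12. The gene that passed was Ece2, a peptidase that can cut big endothelin to its active form. It read 163, 178 and 232 in LPS/GalN, against 377, 482 and 489 in LPS, without overlap. The difference was -1.24 (SE 0.24), or 2.36-fold lower, with a limma adjusted p of 0.0308. That call was lost when any array but LPS/GalN replicate 3 was left out, with adjusted p from 0.0684 to 0.122, and also when the rows of the gene were averaged (-0.81, adjusted p = 0.0994).

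Ece1, the main converting enzyme of endothelin 1, was bright and its groups overlapped. It read 3850, 2880 and 2250 in LPS/GalN, against 2270, 1950 and 2720 in LPS, a difference of 0.35 (SE 0.27; limma adjusted p = 0.563). It was 0.75 with LPS/GalN replicates 2 and 3 left out and 0.11 with LPS replicates 1 and 2 left out. Edn2, the ligand related to endothelin 1, was dim, at 44.9, 54.7 and 45.8 in LPS/GalN, against 54.1, 83.1 and 34.9 in LPS. Edn3 is not analysed here.

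Among 32 of 34 listed genes of other vasoactive systems, 2 were lower and 0 higher, against 3.01% and 0.598% of all features. The median was 0.10. At an unadjusted p under 0.05 in limma, 4 were lower and 6 higher, with 3251 and 3058 of all 35972 features. Nos2, the inducible nitric oxide synthase, read 51.7, 67.2 and 66.4 in LPS/GalN, against 784, 525 and 695 in LPS. The groups were far apart, with a difference of -3.43 (SE 0.25) or 10.7-fold lower (limma adjusted p = 0.000515). Hmox1, which makes carbon monoxide from haem, read 2860, 1760 and 1460 in LPS/GalN, against 9180, 7820 and 6670 in LPS, 4.03-fold lower (-2.01, SE 0.30; limma adjusted p = 0.0093). Without LPS replicate 1 its adjusted p was 0.0503, with the difference at -1.89. Nos3, the endothelial nitric oxide synthase, was not among them: it read 334, 187 and 160 in LPS/GalN, against 157, 138 and 113 in LPS, a difference of 0.68 (SE 0.32; limma adjusted p = 0.324). It was 0.36 without LPS/GalN replicate 1 and 1.31 with LPS/GalN replicates 2 and 3 left out. With LPS replicates 1 and 2 left out Nos2 was at -3.50 (adjusted p = 0.0589) and Hmox1 at -1.78 (adjusted p = 0.31); with LPS/GalN replicates 2 and 3 left out Hmox1 was at -1.45 (adjusted p = 0.167).

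All 20 listed hypoxia-inducible genes were measured. Of these 1 was lower and 0 were higher, against 3.01% and 0.598% of all features. The median was 0.03, with 10 of the 20 differences above 0. At an unadjusted p under 0.05 in limma, 5 were lower and 2 higher, with 3251 and 3058 of all 35972 features. The summed intensity of the list was 42000 to 44400 in LPS/GalN, against 55600 to 57200 in LPS. Vegfa, the vascular growth factor, had a difference of -0.69 (SE 0.24; adjusted p = 0.191). Hif1a, the oxygen-sensitive transcription factor subunit, had a difference of -1.29 (SE 0.33; adjusted p = 0.0831), with 429, 280 and 628 in LPS/GalN, against 1130, 1160 and 841 in LPS.

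Markers of the cells that carry these receptors were set beside them. Of 19 sinusoidal endothelial markers measured (22 listed), 4 were higher and 0 lower, with a median log2 difference of 0.93. The list averaged 9.16 to 9.54 in LPS/GalN, against 8.17 to 8.98 in LPS, and its summed intensity was 20200 to 24500, against 9740 to 14800. Pecam1, an endothelial adhesion molecule, read 2030, 2000 and 1990 in LPS/GalN, against 674, 711 and 944 in LPS (1.39, SE 0.23; limma adjusted p = 0.0139). The others that passed were Egfl7, an endothelial secreted protein (1.81, SE 0.38), Ehd3, a membrane trafficking protein (1.15, SE 0.22), and the receptor kinase Tie1 (1.07, SE 0.23). Of the 19 markers, 17 had a difference above 0 in their brightest row, while Cdh5 (-0.03) and Robo4 (-0.42) lay below it. Kdr (-0.58), Stab1 (-0.8) and Flt1 (-0.2) each had another row below 0. No row of Pecam1, Tie1, Egfl7, Eng, Emcn or Fcgr2b was below 0. Averaging the rows of a gene lost the calls of Tie1 (0.69, limma adjusted p = 0.148) and Egfl7 (1.49, limma adjusted p = 0.0824). The list median was then 0.59. All 19 markers were above the random probes on every array. Over all arrays 11 of the 19 were higher at an unadjusted p under 0.05, as were 3058 of all 35972 features. The adjusted calls depended on which array was left out. Of the 19, 0 passed without LPS/GalN replicate 2, LPS replicate 1 or LPS replicate 2, and 7 passed without LPS replicate 3. Without LPS/GalN replicate 1 or LPS/GalN replicate 3, 1 passed. The median stayed between 0.81 and 1.14 over the single arrays left out. Leaving out LPS replicates 1 and 2 together gave a median of 0.52.

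Calcrl and Ramp2, like the mean of these endothelial markers, stood higher on every LPS/GalN array than on any LPS array. Within LPS/GalN the order of the arrays differed. On replicates 1, 2 and 3 the endothelial list averaged 9.54, 9.16 and 9.39. Calcrl was at 7.06, 7.69 and 7.73 there, and Ramp2 at 8.58, 8.6 and 7.86. Within LPS the list (8.17), Calcrl (5.87) and Ramp2 (7.03) were all lowest on replicate 2. The part of endothelial cell content in the Calcrl and Ramp2 values was not tested. Kupffer cell markers had 13 of 13 differences above 0, with a median of 0.82. Their summed intensity was 24500 to 27400 in LPS/GalN, against 12200 to 17900 in LPS. Of these markers 0 passed the limma threshold and 9 had an unadjusted p under 0.05, with 3058 of all 35972 features higher at that p. Stellate cell markers had a median of 0.24, with 1 of 14 higher, the neurotrophin receptor Ngfr (1.46, SE 0.24; limma adjusted p = 0.0142), and 0 lower. Vascular smooth muscle markers had a median of -0.09, with 1 of 8 lower, the smooth muscle myosin heavy chain Myh11 (-1.39, SE 0.28; limma adjusted p = 0.0343), and 0 higher. That median was -0.49 when LPS/GalN replicate 1 was dropped, 0.23 when replicate 2 of that group was dropped, 0.06 without LPS replicate 1 and -0.28 without LPS replicate 3. It was 0.53 with LPS/GalN replicates 2 and 3 left out and 0.49 with LPS replicates 1 and 2 left out. The Myh11 call was lost whichever single array was left out, and the Ngfr call was lost without LPS/GalN replicate 3 (adjusted p = 0.0565) or LPS replicate 2 (adjusted p = 0.0688).

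**Figure D3:**
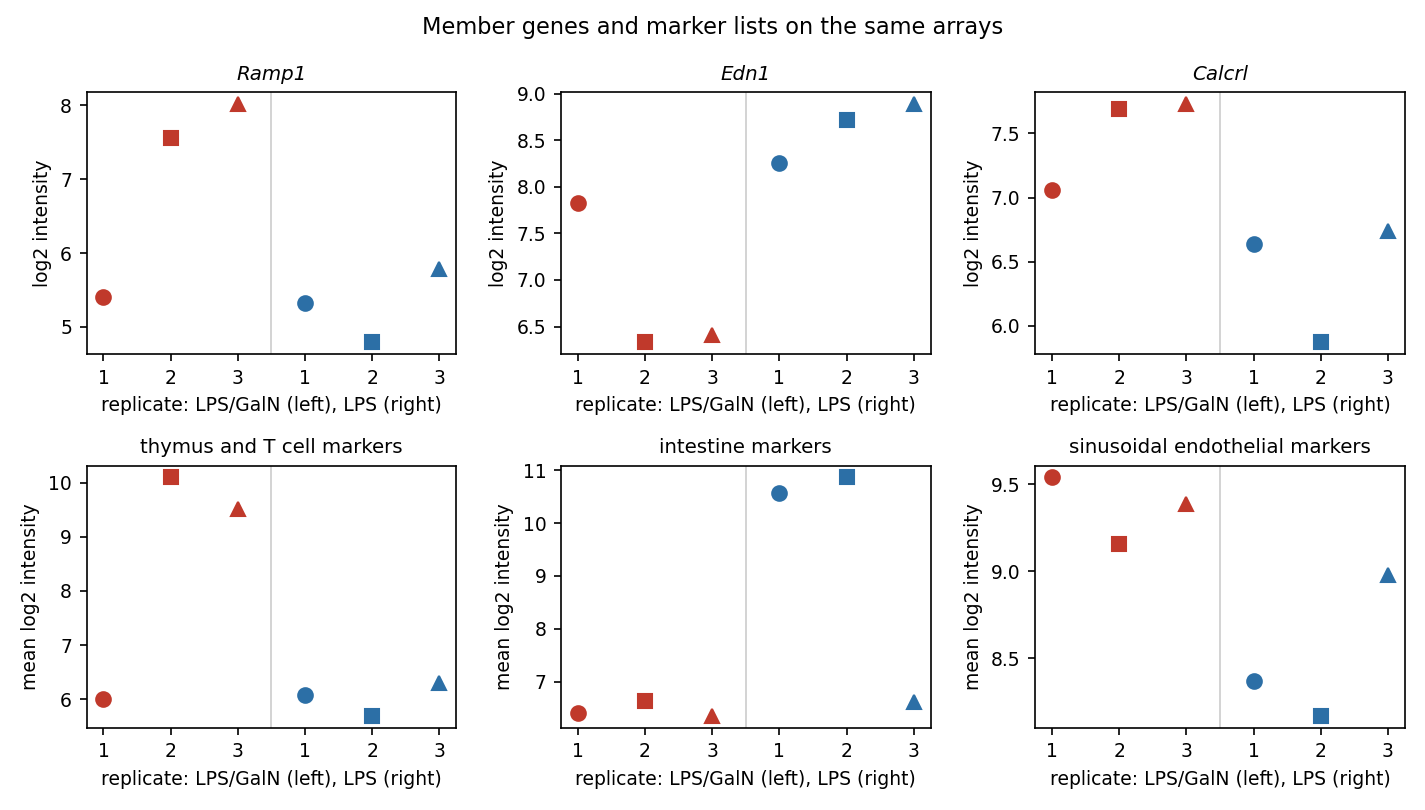
Log2 intensity of Ramp1, Edn1 and Calcrl (upper panels) and mean log2 intensity of the thymus and T cell, intestine and sinusoidal endothelial marker lists (lower panels) on the 6 arrays, LPS/GalN in red on the left and LPS in blue on the right of each panel. Ramp1 is high and Edn1 low on LPS/GalN replicates 2 and 3, where the thymus and T cell list averages 10.10 and 9.52. The intestine list is high on LPS replicates 1 and 2.

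**Figure D4:**
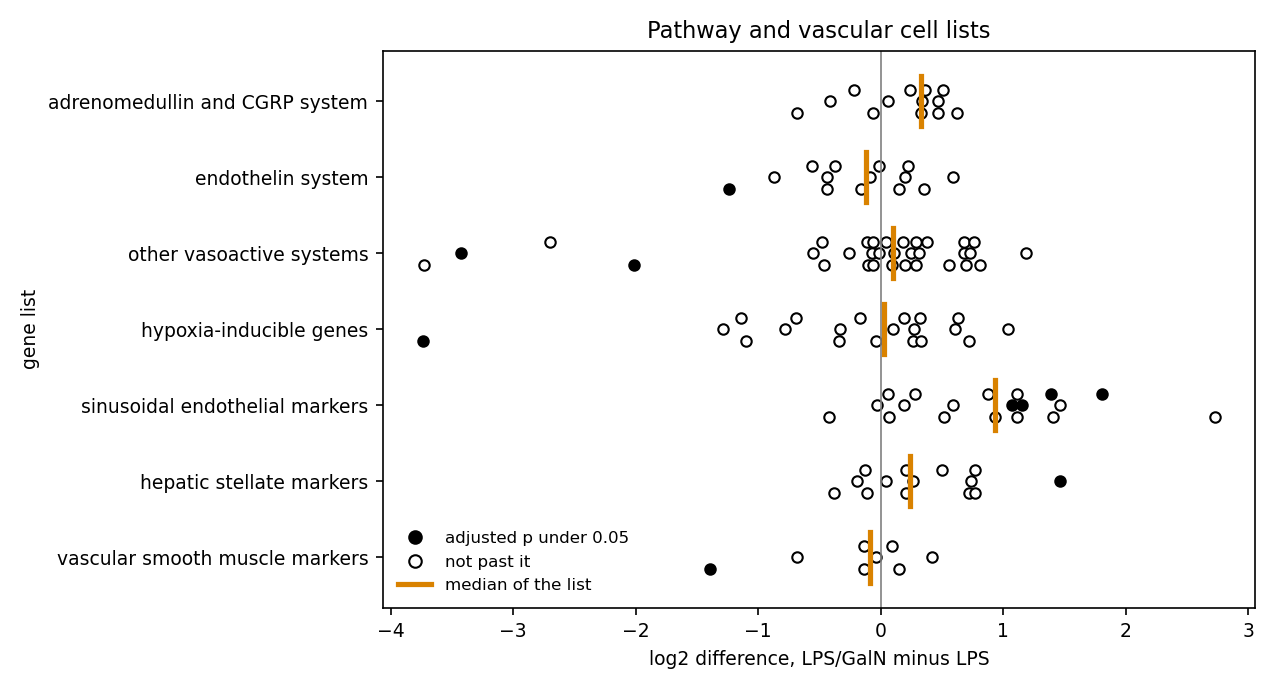
Log2 difference, LPS/GalN minus LPS, of each measured gene of 7 lists, 1 point per gene (vertical offset within a list only separates points), filled where the limma adjusted p is under 0.05, with the list median in orange. The 4 filled endothelial points lie right of 0, and the filled points of the endothelin, vasoactive, hypoxia and smooth muscle lists lie left of 0.

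Profiles over the 6 arrays were compared with those of Adm and of Edn1 among 2648 genes that had a symbol and were brighter than the median feature, by the root mean square difference between log2 profiles, each centred on its own mean. Among the nearest to Adm were Arhgef26 (0.38), a guanine nucleotide exchange factor, Bcl3 (0.60), a nuclear partner of NF-kB subunits, Nos2 (0.68) and the predicted gene Gm12250 (0.68). These 4 passed the threshold, with log2 differences from -4.12 for Arhgef26 to -3.36 for Bcl3. Differences of that size follow from picking genes by likeness to Adm and are not a separate result. Nearest to Edn1 were LOC100040381 (0.24), the keratin-associated protein gene Krtap4-2 (0.25), Acvr1 (0.32), a receptor of bone morphogenetic proteins, Tead3 (0.33), a DNA-binding partner of Yap, and Cdkn1a (0.33), the cell cycle inhibitor p21. Of these, Acvr1 alone passed the threshold (-2.19, SE 0.36; limma adjusted p = 0.0144). Cdkn1a read 11.26, 9.74 and 9.64 on the log2 scale in LPS/GalN, against 11.52, 11.17 and 11.98 in LPS, so it shared with Edn1 a LPS/GalN replicate 1 that stood well above replicates 2 and 3. Likeness here is over 6 arrays only, and these genes share the arrays and any other tissue they carry.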

How the data were processed

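Liver RNA of 6 mice was measured on NimbleGen single-colour arrays, Cy3-labelled per the labels' protocols. The authors deposited RMA intensity on a linear scale for 44170 target rows per array, per the file headers; RMA is named in the submitters' processing notes, with no version or settings. RMA equalises the arrays, so a global change of RNA would not be seen. The files give mm9 gene positions and no probe positions, so exons and untranslated regions were not examined.

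Rows were named from their identifiers, descriptions and a table of RefSeq genes (8750 with a symbol, 26300 with a gene name only, 9120 with neither); a symbol was kept only where the row lay on the gene's chromosome. Rows of a gene were joined, and the row with the highest mean was kept, giving 35972 features. Log2 intensities were compared, LPS/GalN minus LPS, with limma 3.58.1 in R 4.3.3 (lmFit and eBayes, two-sided, group as the only term, 4.019 prior degrees of freedom) and Benjamini-Hochberg adjustment over every feature, with a threshold of 0.05 on the adjusted p. No filter on dim features was applied. Precision is limited by 3 arrays per group. Folds are ratios of geometric means.

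The members and the lists were chosen with earlier results of these data known. Genes were named by a fixed rule: all members, list genes past the threshold, 11 further genes of the pathways whatever their result, and the 5 nearest profiles each for Adm and Edn1; Gpr182 and Ace were added after their values were seen, and 1 gene that the rule names is not reported here. Per the labels each replicate came from a separate treatment. Replicate numbers were not used to pair the arrays in the main fit. The 17 alternatives covered row choice, limma settings, filters, scaling, a replicate block, single arrays and the arrays with markers of other tissues; the deposited value table of 18076 rows, also RMA intensity, served as a filter on dim rows.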

Additional observations from a re-analysis of the deposited data

How the results depend on the processing

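Of 17 other settings, Adm passed the threshold in 16; with LPS replicates 1 and 2 left out it was -3.95 (adjusted p = 0.137), where 1 LPS array is assumed to vary like the LPS/GalN group and 0 features passed in either direction (1009 higher and 2237 lower at an unadjusted p under 0.05). The number of members lower was then 0. It was 2 (Adm and Edn1) with trend and robust fitting, in the deposited value table, with log2(intensity + 32) and without LPS/GalN replicate 1, so Edn1 passed in 4 settings; over the single arrays left out it was 1 to 2. The number of members higher was 0 to 1 over those, the 1 being Ramp1 without LPS/GalN replicate 1.

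Over all features, higher calls numbered 893 with trend and robust fitting, 634 in the deposited value table, 490 with log2(intensity + 32) and 19 with LPS/GalN replicates 2 and 3 left out, against 215 as reported; lower calls were 239 with those arrays left out, against 1084. Leaving out single arrays gave 35 (LPS replicate 1) to 627 (LPS/GalN replicate 1) higher and 646 (LPS replicate 1) to 1090 (LPS replicate 3) lower; without LPS replicate 2 the counts were 42 and 696, and higher calls were 60 and 111 when LPS/GalN replicate 2 or 3 was dropped.

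The replicate block gave 110 higher and 817 lower, with the Adm adjusted p at 0.00746. Under it Ece2, Pecam1, Tie1, Egfl7, Ehd3, Ngfr and Myh11 were no longer past the threshold, with adjusted p from 0.0526 (Pecam1) to 0.092 (Ehd3). Correlations of the deviations of same-numbered arrays were 0.003, -0.002 and 0.026, and 0 of 6 arrays correlated best with its own number, so they share only a number.

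Directions of members and pathway genes that had not passed turned in these cases: Ramp3 was -0.28 to 0.19 over the single arrays left out (above 0 without replicate 2 or 3 of LPS/GalN, at 0.03 and 0.06, or replicate 2 of LPS), 0.27 with LPS/GalN replicates 2 and 3 left out and 0.46 with LPS replicates 1 and 2 left out. Ednra was -0.37 to 0.23 over the single arrays, above 0 without LPS/GalN replicate 2, and 0.37 with LPS/GalN replicates 2 and 3 left out. Pam was -0.30 to 0.57 over the single arrays, below 0 without LPS/GalN replicate 1 and at 0 without LPS replicate 2; Edn2 was -0.47 to 0.15, above 0 without LPS replicate 2, and 0.47 with LPS replicates 1 and 2 left out, and Calcr -0.06 with LPS/GalN replicates 2 and 3 left out. The cause was not tested. Trend and robust fitting, the deposited value table and log2(intensity + 32) gave 4 lower hypoxia-inducible genes each, 9, 8 and 8 higher endothelial markers and 6, 4 and 4 higher Kupffer markers. Trend and robust fitting also called Gnas of the adrenomedullin and CGRP list (0.36, adjusted p = 0.0343) and Agtr1a of the vasoactive list (0.73, adjusted p = 0.0249) higher, both named after their values were seen. Without LPS replicate 3 the vasoactive list had 4 lower and 1 higher, and 7 endothelial markers were higher. The median of the endothelin list ranged from -0.31 to 0.17. Signal near the random probes limits Ramp3, one Ednra row, Adm2, Calca, Calcr and Ackr3.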

Other observations

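Gpr182, an endothelial receptor once described as a receptor of adrenomedullin and now grouped with the atypical chemokine receptors, read 940, 672 and 956 in LPS/GalN, against 123, 48.9 and 343 in LPS. The groups did not overlap, with LPS replicate 2 the lowest. The log2 difference was 2.73 (SE 0.62), or 6.64-fold higher, the largest of the 19 sinusoidal endothelial markers measured, and the limma adjusted p was 0.0563, so it did not pass. It was singled out after its values were seen.

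Ace, the converting enzyme of the angiotensin system, followed the arrays with intestine markers. It read 98.1, 71.7 and 117 in LPS/GalN, against 5520, 5170 and 67.8 on LPS replicates 1, 2 and 3. On LPS replicate 3, where intestine markers were low, it lay next to the LPS/GalN range. It was singled out after its values were seen, and it did not pass the threshold.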
